A study of Mus musculus with 8 samples.

Results

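Cluster 10 of the authors' deposited clustering was examined in mouse CD4+ T cells profiled by single-cell RNA sequencing. Its members were the cells with cluster number 10 and at least 500 detected genes in the deposited cell table, which gave 1140 of 101688 kept cells (1.12%). The clusters were made from the same transcripts, so levels that set cluster 10 apart are described here and not tested. The table listed 1151 cells with that number, and the 11 left out had 389 to 478 genes, while the 11 just inside the limit had 500 to 551. Cluster 10 had been given its working name from Cenpf, Hmmr and Ube2c, and how far its cells carried these transcripts is described below.

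The cells came from spleens of female mice aged 10 weeks, were polarized in culture and were harvested at day 3. KO animals lacked Gpr65 and WT animals carried it, with GPR65 given as the strain of both. The sources used here do not give how the gene was deleted. The 4 groups were KO Th22, WT Th22, KO Th17 and WT Th17, each with 2 libraries. IL-1b at 20 ng/ml was added to every culture, and so was IL-23, also at 20 ng/ml. Th22 cultures also received IL-6 at 40 ng/ml and 400 nM FICZ, which activates the aryl hydrocarbon receptor, whereas Th17 cultures received IL-6 at 25 ng/ml without FICZ, so that the Th22 and Th17 conditions differed in both agents. Whether the 2 libraries of a group came from different animals or cultures is not in the labels, so p-values reflect only how these libraries varied, and that variation may be technical.

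Mitosis begins when cyclin B and CDK1, helped by Aurora and Polo-like kinases, drive chromosome condensation and assembly of the spindle. Kinetochores then attach chromosomes to spindle fibres, a checkpoint holds the cell until all are attached, and the anaphase promoting complex marks cyclin B and securin for destruction so that chromosomes part. Messenger RNAs for these proteins accumulate through G2 and mitosis, when DNA replication is over, under the factors B-MYB and FOXM1 and the DREAM and MuvB complexes. CD4+ T cells divide rapidly after activation, and cultures of T helper cells therefore hold cells in every phase.

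Cenpf encodes a kinetochore protein that builds up in G2, Hmmr a spindle protein that also binds hyaluronan, and Ube2c the ubiquitin-conjugating enzyme that works with the anaphase promoting complex. Cenpf (ENSMUSG00000026605) lies on the minus strand of chromosome 1 from 189640606 to 189688086 of GRCm38, Hmmr (ENSMUSG00000020330) on the minus strand of chromosome 11 from 40701395 to 40733422, and Ube2c (ENSMUSG00000001403) on the plus strand of chromosome 2 from 164769898 to 164778822. Their promoters are shown because genes of this phase often carry a cell cycle genes homology region, whose core letters are TTTGAA, downstream of CCAAT boxes. Each sequence runs from 250 bases before to 50 bases after the RefSeq start in GRCm38.p6, and capitals mark TTTGAA and CCAAT on either strand, where the other strand reads TTCAAA and ATTGG. The Cenpf promoter spans chr1:189688037-189688336 (minus strand), that of Hmmr chr11:40733388-40733687 (minus strand) and that of Ube2c chr2:164769679-164769978 (plus strand).
Cenpf: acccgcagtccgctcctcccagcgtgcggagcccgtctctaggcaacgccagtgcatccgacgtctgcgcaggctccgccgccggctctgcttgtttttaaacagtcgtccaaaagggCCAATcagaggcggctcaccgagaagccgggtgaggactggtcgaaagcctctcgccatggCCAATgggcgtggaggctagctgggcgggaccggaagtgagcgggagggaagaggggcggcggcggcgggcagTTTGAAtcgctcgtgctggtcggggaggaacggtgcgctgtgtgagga
Hmmr: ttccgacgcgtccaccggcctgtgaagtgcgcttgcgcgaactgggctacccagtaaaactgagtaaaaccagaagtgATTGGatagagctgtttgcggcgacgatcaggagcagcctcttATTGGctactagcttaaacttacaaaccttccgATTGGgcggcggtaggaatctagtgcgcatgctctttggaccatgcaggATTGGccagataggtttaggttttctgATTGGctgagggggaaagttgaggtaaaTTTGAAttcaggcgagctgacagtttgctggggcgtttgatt
Ube2c: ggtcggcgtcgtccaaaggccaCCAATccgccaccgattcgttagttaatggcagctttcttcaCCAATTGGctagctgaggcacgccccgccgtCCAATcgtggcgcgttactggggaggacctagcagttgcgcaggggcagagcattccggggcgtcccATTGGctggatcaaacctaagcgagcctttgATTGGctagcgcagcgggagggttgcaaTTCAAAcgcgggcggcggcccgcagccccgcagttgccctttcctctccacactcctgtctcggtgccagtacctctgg
Each promoter held 1 TTTGAA motif, and the CCAAT motif occurred 2 times in Cenpf, 5 times in Hmmr and 6 times in Ube2c, where a CCAAT and an ATTGG overlap in CCAATTGG. Among the 143 measured genes of 9 mitotic lists, 121 had a RefSeq promoter, of which 61 (50.4%) held TTTGAA, 78 (64.5%) CCAAT and 47 (38.8%) both. Among the 33 matched promoters of 40 S phase genes these shares were 15.2% for TTTGAA and 60.6% for CCAAT, and among all 27025 mouse promoters of the same length they were 18.1% for TTTGAA, 37.9% for CCAAT and 7.12% for both.

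Kept cells numbered 9969 to 15119 per library, with 33826527 to 58895019 unique molecular identifiers (UMIs), each of which counts 1 captured transcript. Cluster 10 cells had a median of 7216.5 UMIs and 2027.5 genes, against 3102 UMIs and 1151 genes in cluster 3, the other cluster rich in mitotic transcripts, and 2969 UMIs in all other clusters together. Of the cluster 10 cells, 175 lay above 9000 UMIs, near the upper end of the deposited cells, so that the deposited range closes within cluster 10. Of 2404 cells whose barcode occurred in more than 1 library, 24 were in cluster 10, and no barcode was shared by cluster 10 cells of 2 libraries. Doublets were not identified here, and their part in the depth of cluster 10 was not tested.

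Depth split cluster 10 into 2 kinds of cells that differed in their mitotic transcripts. It held 1065 cells of at least 3000 UMIs (median 7378) and 75 cells of at most 2317 UMIs (median 1598 UMIs and 646 genes), with none between. The KO Th17 libraries stood apart, with median depths in cluster 10 of 1965 and 1837 UMIs, against 7655 and 7588 UMIs in KO Th22, 7035 and 7175 in WT Th22, and 6365 and 7611.5 in WT Th17. Shallow cells made up 27 of 41 and 36 of 52 cluster 10 cells in the 2 KO Th17 libraries, or 67.7% of the 93 cells together, but 4 and 8 cells in WT Th17 replicate 1 and WT Th22 replicate 1 and none in the other 4 libraries. Only 14 and 16 deep cells remained in KO Th17.

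**Figure D1:**
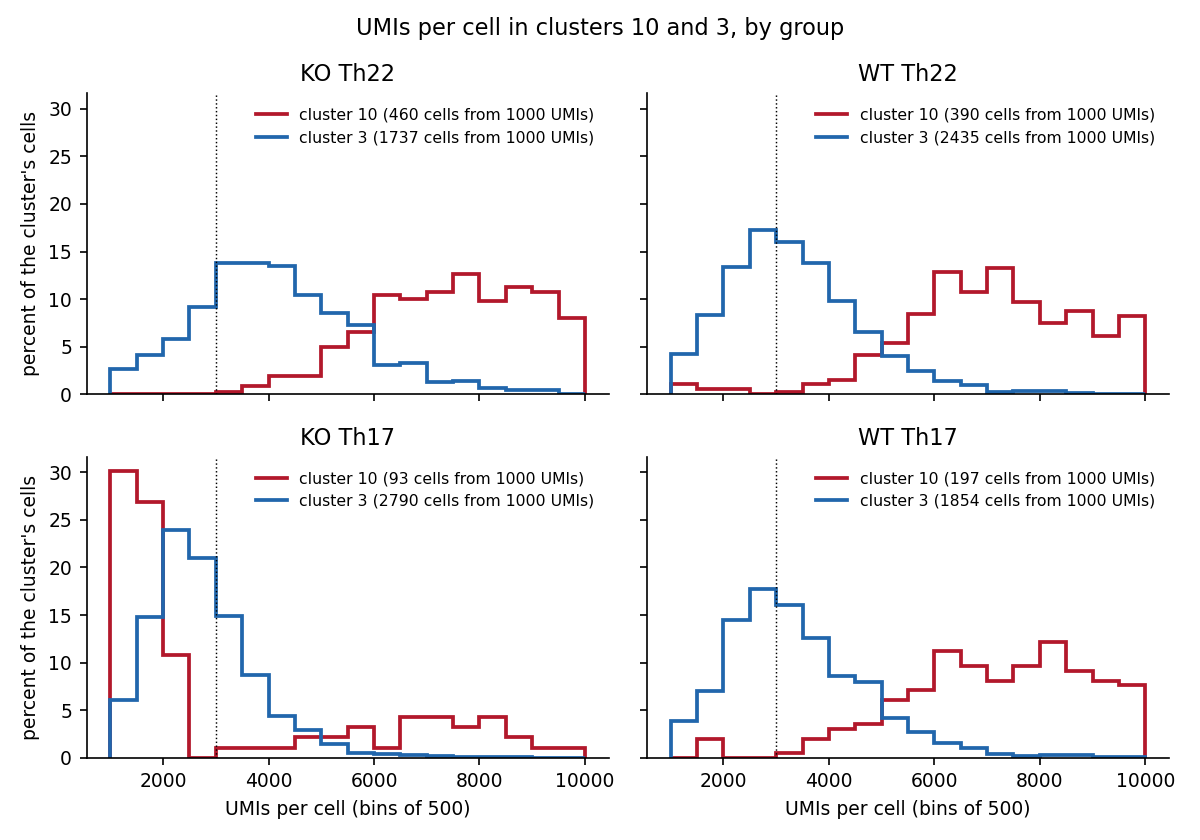
UMIs per cell (x axis, bins of 500 UMIs) as the percent of a cluster's cells (y axis) in cluster 10 and cluster 3, with 1 panel per group and a dotted line at 3000 UMIs. Cluster 10 sits to the right of cluster 3 in 3 groups, whereas in KO Th17 most of its 93 cells lie below 3000 UMIs.

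Together the shallow cells held 1 UMI of the 3 markers that name the cluster. Their 121603 UMIs held 0 UMIs of Cenpf and 0 of Hmmr, where the other cells below 3000 UMIs of the same libraries would give 3.96 and 2.81 UMIs. At a count of 0 in this total the exact Poisson 95% interval reaches 30.3 counts per 1000000 UMIs (CPM). Ube2c had 1 UMI, or 8.22 CPM (exact Poisson 95% interval 0.208 to 45.8), against 138 CPM in those other shallow cells. Top2a, the topoisomerase that untangles replicated chromosomes, had 0 UMIs where 19.2 would be given. Mki67, Birc5 and Nusap1 were also at 0, where 4.74, 5.1 and 9.19 would be given. Plk1, Aurka and Cdc20 were at 0 too, but only 1.24, 1.15 and 2.73 would be given, so these zeros say little. The same holds for the 0 of Hmmr, where 2.81 would be given. For Cenpf the other shallow cells were at 32.5 CPM, just above the upper limit of 30.3 CPM. Ccnb1 had 1 UMI where 2.69 would be given. The 143 mitotic genes together reached 2010 CPM, against 3670 CPM in the other shallow cells, and replication histones 173 against 749 CPM. T cell genes were present, with Cd3e at 46 UMIs where 40.9 would be given and Trac at 43 where 36 would be given. The shallow cells are therefore referred to only by cluster number and depth, and values from cells of at least 3000 UMIs, or without the KO Th17 libraries, stand beside the main results that include those libraries. The intervals cover counting error only.

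The deep cells carried the transcripts behind the name at the level of single cells. This describes the cluster and is no test of its name, since clusters and name rest on the same transcripts. Each cell was thinned at random to 3000 UMIs, which compares cells at equal depth and leaves out the 75 shallow ones. A median of 40 of the 3000 UMIs came from the 143 mitotic genes in cluster 10 (5th to 95th percentile 21 to 67 over 1065 cells), against 28 in the 4731 of 8862 cluster 3 cells that deep and 7 in 44783 cells of the other clusters. UMIs of 40 S phase genes had a median of 5 in both cluster 10 and cluster 3 and 2 in the others. The medians of mitotic UMIs in cluster 10 were 38 and 37 UMIs in KO Th22, 37 and 44 UMIs in WT Th22, 28 and 41 UMIs in KO Th17, and 42 and 39 UMIs in WT Th17, so KO Th17 replicate 1, with 14 cells, was the lowest. The authors' deposited G2/M score was above 0 in 95.3% of deep cluster 10 cells, 58.3% of cluster 3 and 10.0% of the others, and the sources used here do not give how it was computed.

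Cenpf was detected in 55.2% of thinned cluster 10 cells (exact binomial 95% interval 52.2 to 58.2), against 30.5% in cluster 3, 6.54% in the other clusters and 2.73% in cluster 9, the lowest of the clusters. Hmmr was detected in 44.5%, 27.5% and 5.51% of cluster 10, cluster 3 and other cells, and Ube2c in 90.7%, 68.7% and 24.6%. Without thinning and over all kept cells, those below 3000 UMIs included, the shares for Cenpf were 71.1%, 33.6% and 5.53%. The cells that were thinned had median depths beforehand of 7378 UMIs in cluster 10 and 3855.5 UMIs in cluster 9. All 3 markers were present in 28.2% of cluster 10, 11.5% of cluster 3 and 1.84% of other cells, and no marker in 4.04% (43 cells), 23.6% and 72.6%. Most deep cells of cluster 10 thus carried at least 1 of the 3 transcripts, yet no single marker except Ube2c was seen in nearly all of them at this depth.

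The part of the mitotic cells that lay in cluster 10 grew with depth, and so did its part of all cells. Of all kept cells of 3000 to under 5000, 5000 to under 7000 and 7000 UMIs or more, cluster 10 held 0.227%, 2.97% and 10.3%. Cluster 3 held 11.6%, 6.85% and 2.37% of them, and the other clusters 88.1%, 90.2% and 87.3%. Among 3674 cells of 3000 to under 5000 UMIs with at least 30 mitotic UMIs after thinning, 67 (1.82%) were in cluster 10, 1919 (52.2%) in cluster 3 and 1688 (45.9%) elsewhere. Among 1636 such cells of 5000 to under 7000 UMIs, 319 (19.5%) were in cluster 10, 232 (14.2%) in cluster 3 and 1085 (66.3%) elsewhere. Among 728 such cells of 7000 UMIs or more, 419 (57.6%) were in cluster 10, 7 (0.962%) in cluster 3 and 302 (41.5%) elsewhere. Within cluster 10 the median mitotic count was 57, 44.5 and 35 UMIs in the 3 depth ranges, and within cluster 3 it was 30, 22 and 16. Thus in each of these 3 ranges cluster 10 held more mitotic UMIs per cell than cluster 3, while at 3000 to under 5000 UMIs it held few of the cells rich in them.

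**Figure D2:**
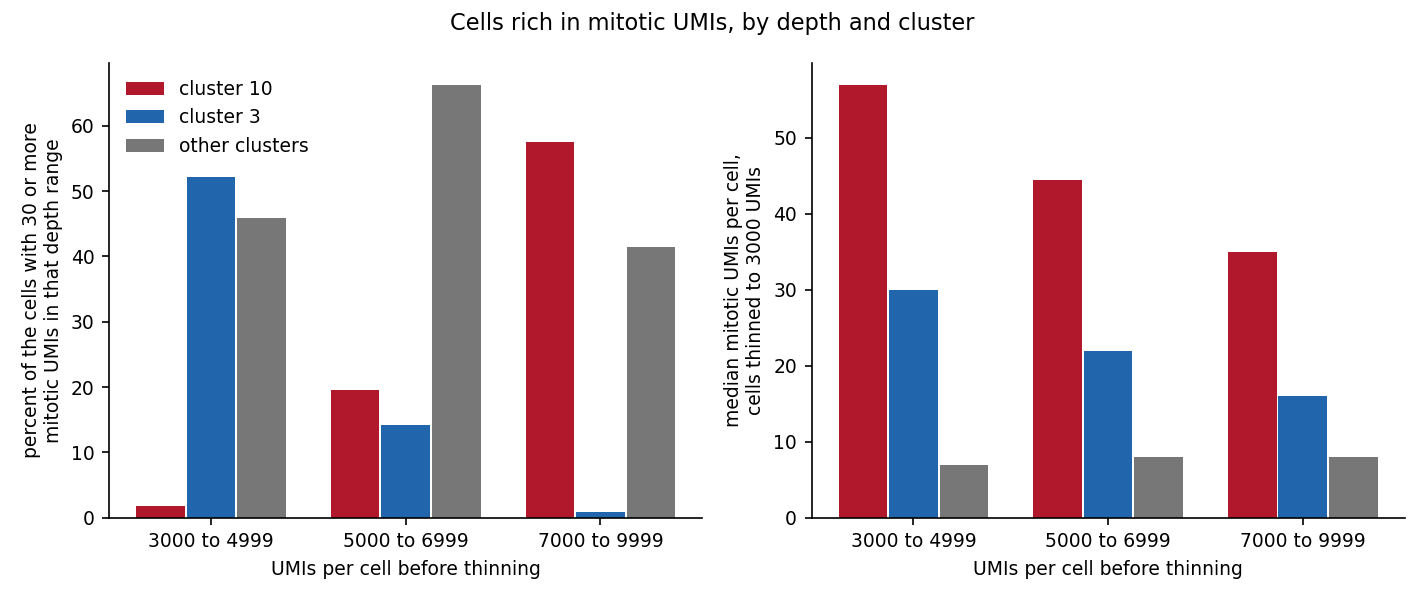
Left, the percent of cells with at least 30 mitotic UMIs (y axis) that belong to cluster 10, cluster 3 or the other clusters in 3 ranges of UMIs per cell (x axis). Right, the median of mitotic UMIs per cell after thinning to 3000 UMIs in the same ranges. The share of cluster 10 is 1.82%, 19.5% and 57.6%, against 0.227%, 2.97% and 10.3% of all cells in these ranges. Its median is 57, 44.5 and 35 UMIs.

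For each library, counts were next added up over the cluster's cells and expressed as CPM of that sum. Cenpf in cluster 10 was at 296 and 318 CPM in KO Th22, 289 and 316 in WT Th22, 158 and 216 in KO Th17, and 429 and 282 in WT Th17. In cluster 3 it was at 129 and 150 CPM in KO Th22, 190 and 165 in WT Th22, 138 and 218 in KO Th17, and 203 and 136 in WT Th17. All clusters other than 10 gave 28.4 to 44.1 CPM. Cluster 10 was thus above cluster 3 in 7 of 8 libraries, with KO Th17 replicate 2 as the exception, and the mean log2 ratio was 0.75 ± 0.45 (SD, n = 8 libraries; 5 CPM added to both sides). Among the deep cells of the 2 KO Th17 libraries Cenpf reached 229 and 335 CPM.

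Hmmr in cluster 10 was at 227 and 198 CPM in KO Th22, 192 and 224 in WT Th22, 101 and 138 in KO Th17, and 246 and 178 in WT Th17, against 104 to 152 CPM over the cluster 3 libraries and 20.4 to 33.5 CPM elsewhere. Ube2c was at 1021 and 1015 CPM in KO Th22, 885 and 1135 in WT Th22, 374 and 600 in KO Th17, and 1064 and 1141 in WT Th17, against 470 to 701 CPM in cluster 3 and 140 to 199 CPM elsewhere. Both genes were higher in cluster 10 than in cluster 3 of the same library in 6 of 8 libraries and lower in the 2 KO Th17 libraries, with mean log2 ratios of 0.53 ± 0.41 for Hmmr and 0.54 ± 0.52 for Ube2c (SD, n = 8). In deep cells of KO Th17, Hmmr was at 146 and 214 CPM and Ube2c at 530 and 929 CPM.

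**Figure D3:**
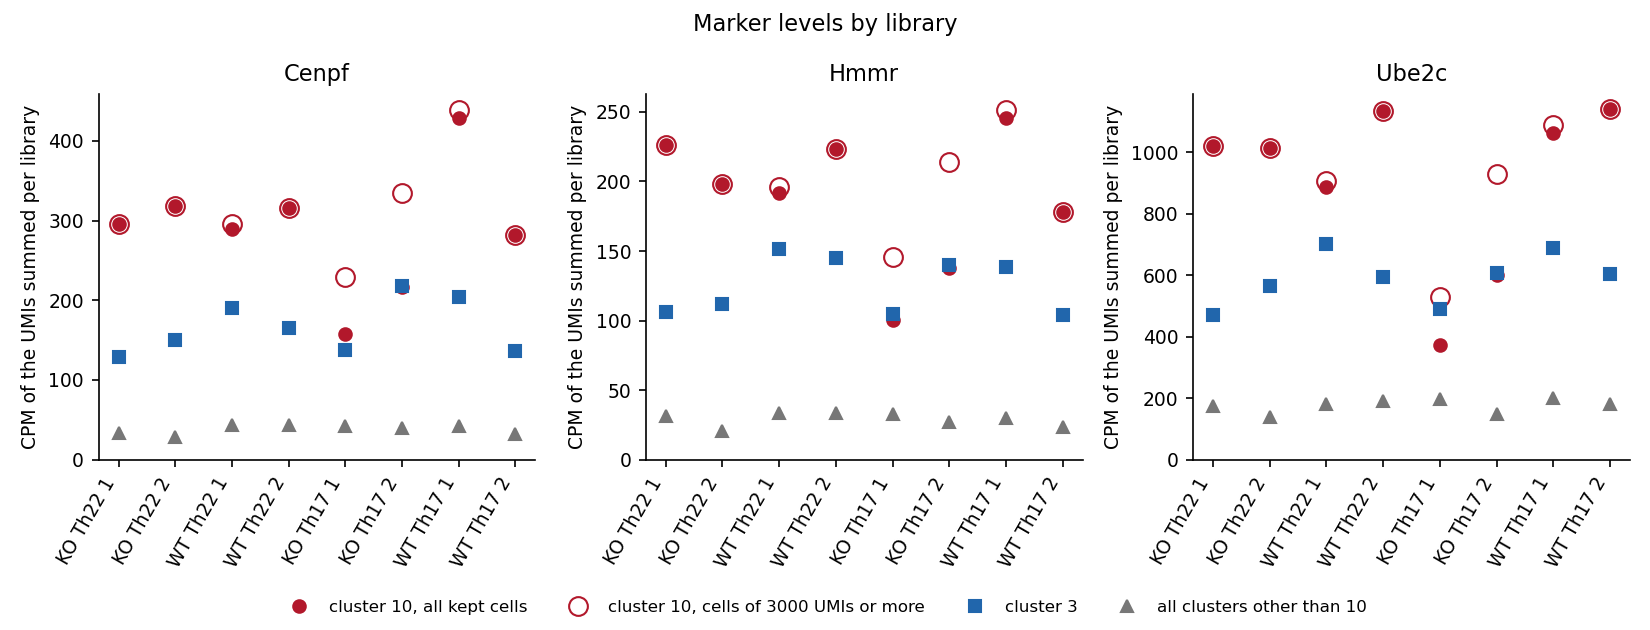
CPM of Cenpf, Hmmr and Ube2c (y axes) in each library (x axis), in all kept cluster 10 cells (filled circles), cluster 10 cells of at least 3000 UMIs (open circles), cluster 3 (squares) and all clusters other than 10 (triangles). Filled and open circles part in the KO Th17 libraries, where Ube2c is at 374 and 600 CPM in all cells and 530 and 929 CPM in deep cells.

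To bring the depths of the clusters closer, they were next compared among cells of at least 5000 UMIs. This shared lower limit did not make them equal, as the median was 7525.5 UMIs in cluster 10 and 5733 UMIs in cluster 3. It also left cluster 3 cells that were poorer in mitotic UMIs. Their median after thinning was 21, against 28 in cluster 3 cells of at least 3000 UMIs, and 35.2% against 58.3% had a G2/M score above 0. How far this enlarged the ratios was not tested. Values of the mitotic lists against cluster 3 below are from this range unless stated. Cluster 10 had 258 and 179 such cells in KO Th22, 69 and 286 cells in WT Th22, 11 and 14 in KO Th17, and 34 and 141 in WT Th17, so KO Th17 rests on few cells, and cluster 3 had 37 to 252 per library. Within this range Cenpf was at 287 and 316 CPM in KO Th22, 270 and 314 in WT Th22, 263 and 342 in KO Th17, and 358 and 275 in WT Th17, while cluster 3 ranged from 67.7 to 115 CPM. All 8 libraries of cluster 10 were above all 8 of cluster 3. The mean log2 ratios were 1.79 ± 0.19 for Cenpf, 1.53 ± 0.38 for Hmmr and 1.31 ± 0.27 for Ube2c, with each gene higher in 8 of 8 libraries (SD, n = 8).

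To be called, a gene had to differ at least 2-fold in the mean over libraries with the same sign in all 8, among genes of at least 20 CPM in either cluster. A gene could enter through its level on either side of a comparison alone. Counts and medians of a list therefore lean toward the side where its genes are high, and they describe the clusters without testing them. In all kept cells this called 1 gene higher (0.0211%) and 2 lower (0.0423%) of 4733, none of them mitotic, and with TMM-scaled sums, which set the bulk of genes level, it called 0 higher and 3 lower. In cells of at least 5000 UMIs it called 33 of 4796 genes higher (0.688%) and 0 lower (0.0%), and 23 of these 33 were among the 114 genes of the mitotic lists that reached 20 CPM. The count depended on the range of depth. With each cell of at least 3000 UMIs thinned to that number, so that depth was equal, 4 of 4835 genes were called higher (0.0827%) and 8 lower (0.165%), and in the same cells without thinning 3 of 4758 were called higher (0.0631%) and 1 lower (0.021%). Cenpf was the only mitotic gene called in either, and the mitotic medians were 0.20 and 0.29. Thinned Cenpf had a mean log2 ratio of 1.04 ± 0.29, Hmmr 0.73 ± 0.31 and Ube2c 0.76 ± 0.28, each higher in 8 of 8 libraries (SD, n = 8). In the range of 5000 to under 7000 UMIs, where the medians were 6198.5 UMIs in cluster 10 and 5601 UMIs in cluster 3, 40 of 4941 genes were called higher (0.81%), 29 of them mitotic, and 12 lower (0.243%), none mitotic. That range held 3 and 7 cluster 10 cells in KO Th17, and without those libraries 62 genes were called higher and 2 lower. Of the 114 mitotic genes, 102 were above 0 in cells of at least 5000 UMIs and 54 were higher in all 8 libraries, against 4.61% of all genes tested, and their median log2 ratio was 0.68, against 0.04 over all genes. With TMM scaling in this range 24 of 4777 genes were called higher (0.502%), 17 of them mitotic, and the mitotic median was 0.61. With the KO Th17 libraries left out 37 of all genes were called (0.789%). Against all other clusters, 73 of 111 mitotic genes were called higher, 0 lower, and their median log2 ratio was 1.45, where 2.47% of all 4700 genes were called higher and 0.0426% lower. TMM scaling moved the median of all genes in that comparison to -0.11, against 0.02 without it, and left 99 of 4707 genes called higher. Without the KO Th17 libraries 88 of 116 mitotic genes were called higher there, where 158 of all 4675 genes were (3.38%).

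The 12 genes with the largest rises over all other clusters were Cenpf, Hmmr, Aurka, Ube2c, Nusap1, Cdc20, Cenpe, Prc1, Ccnb2, Aspm, Ccnb1 and Dlgap5, with mean log2 ratios of 2.73 for Cenpf down to 2.04 for Dlgap5. Nusap1, which bundles spindle microtubules, was at 494 and 402 CPM in KO Th22, 507 and 652 in WT Th22, 172 and 336 in KO Th17, and 542 and 399 in WT Th17, against 49.5 to 115 CPM elsewhere. Prc1, which crosslinks the central spindle, was at 100.6 to 242 CPM against 28.4 to 45.4 CPM, and neither gene overlapped. By role, 10 of 11 mitotic kinesins, 19 of 21 kinetochore genes, 11 of 16 entry kinases and cyclins, 7 of 9 cytokinesis genes, 11 of 18 spindle genes, 5 of 7 checkpoint genes, 3 of 4 passenger complex genes, 8 of 15 condensation genes and 5 of 16 genes of the anaphase promoting complex were called higher. Over all genes 2.47% were called higher in this comparison. The median log2 ratio was 1.81 for the kinesins and 0.30 for the anaphase promoting complex.

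Among kinases and cyclins of mitotic entry, all 16 measured genes of at least 20 CPM were above 0 against cluster 3 in cells of at least 5000 UMIs. Their median log2 ratio was 0.93, against 0.04 over all genes. Ccnb1, Cdc25c, Aurka and Cks2 were called higher, where 0.688% of all genes were. Aurka, the Aurora kinase of the spindle poles, was at 68.3 and 83.3 CPM in KO Th22, 56 and 71.2 in WT Th22, 83.7 and 121 in KO Th17, and 65 and 69 in WT Th17, against 13 to 43.8 CPM over the cluster 3 libraries. Ccnb1, cyclin B1, was at 108 to 161 CPM against 46.9 to 83.6 CPM, so neither gene overlapped between the clusters. Plk1, the Polo-like kinase, did not pass, at 12 to 78 CPM against 18.4 to 59.6 CPM with overlap, and a mean log2 ratio of 0.58. Over all kept cells the median of the group was 0.23 and no member was called.

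The anaphase promoting complex gave 2 called genes of 17, where 0.688% of all genes were called higher. It had a median log2 ratio of 0.17, its core subunits lying near the median of all genes. The called genes were Ube2c and its partner Cdc20, the activator that starts anaphase. Cdc20 was at 181 and 176 CPM in KO Th22, 112 and 184 in WT Th22, 35.9 and 211 in KO Th17, and 158 and 151 in WT Th17, against 32.2 to 76.7 CPM in cluster 3, and KO Th17 replicate 1, with 11 cells, overlapped that range. The 7 genes of the spindle assembly checkpoint, which delays anaphase, had a median of 0.72, all above 0 and none called, with Bub1b at 0.96 and Mad2l1 at 0.59.

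Kinetochore and centromere genes gave 5 called of 23 with a median log2 ratio of 0.62, where 0.688% of all genes were called higher. Cenpe, the kinesin that carries chromosomes to the spindle equator, was at 166 and 150 CPM in KO Th22, 122 and 171 in WT Th22, 95.7 and 201 in KO Th17, and 158 and 148 in WT Th17, against 41.4 to 82.5 CPM in cluster 3, with no overlap. Cenpf, Cenpl and Hjurp, the chaperone that loads the centromeric histone, were also called. Cenpa, that histone, was at 239 to 690 CPM against 191 to 378 CPM, with a mean log2 ratio of 0.93 that did not reach 2-fold. Spc24, a subunit of the microtubule-binding NDC80 complex, went the other way and was lower in all 8 libraries, as 1.61% of all genes were, at 69.1 to 129 CPM against 109 to 178 CPM (mean log2 ratio -0.34).

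The mitotic kinesins had the largest median of the 9 lists. They gave 5 called of 11 and a median log2 ratio of 0.98, with Kif20b at 1.40 and Kif23 at 1.37, and also Kif2c, Kif20a and Cenpe. Kif23, which bundles microtubules between the parting chromosomes, was at 57.7 and 68.7 CPM in KO Th22, 63.7 and 88.1 in WT Th22, 83.7 and 60.4 in KO Th17, and 48.8 and 58.7 in WT Th17, against 13.8 to 30.8 CPM in cluster 3, with no overlap. Spindle assembly and pole genes gave 6 called of 18 and a median of 0.86: Hmmr, Aspm at 1.23, Dlgap5 at 1.22, Ckap5 at 1.15, Ckap2l and Tpx2. Cytokinesis genes gave 3 called of 9 and a median of 0.84, namely Cep55, which recruits the abscission machinery, Kif23 and Kif20a. Over all genes tested 0.688% were called higher.

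The chromosome passenger complex, which corrects faulty attachments, gave 1 called gene of 4, its kinase Aurkb, where 0.688% of all genes were called higher. The complex had a median log2 ratio of 0.80. Birc5, its survivin subunit, had 0.79. Chromosome condensation and cohesion genes gave none called of 15 and a median of 0.49, with Top2a at 0.92 and Smc2 at 0.23. Top2a was at 639 and 639 CPM in KO Th22, 736 and 887 in WT Th22, 562 and 996 in KO Th17, and 805 and 632 in WT Th17, against 290 to 510 CPM in cluster 3, with no overlap. Mki67, which coats mitotic chromosomes, had a mean log2 ratio of 0.71 at this depth and -0.06 over all kept cells. Mybl2, which encodes B-MYB, was the only called member of 5 in the list of FOXM1, B-MYB and MuvB regulators, with a mean log2 ratio of 1.0.

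**Figure D4:**
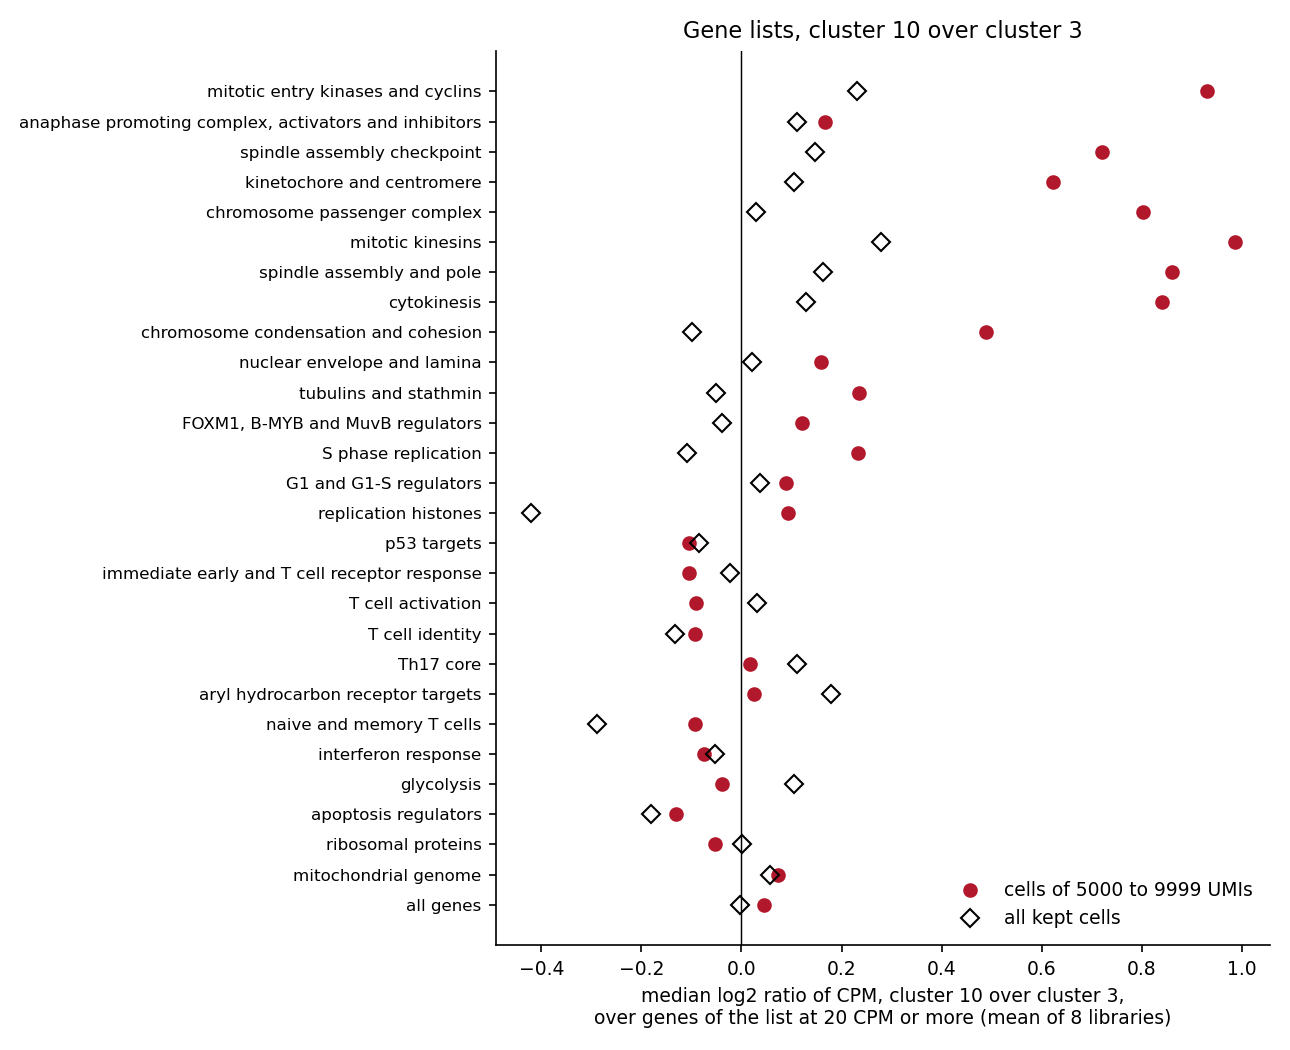
Median log2 ratio of CPM in cluster 10 over cluster 3 (x axis) for each gene list (y axis), over its genes of at least 20 CPM and averaged over 8 libraries, in cells of at least 5000 UMIs (circles) and in all kept cells (diamonds). Circles of the mitotic lists reach 0.98, whereas all genes lie at 0.04, and replication histones are at 0.09 in cells of at least 5000 UMIs and -0.42 in all kept cells.

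Genes of DNA replication did not follow the mitotic lists. At 5000 UMIs or more, S phase genes gave none called of 29 and a median log2 ratio of 0.23 against cluster 3, with Pcna at 0.51 and Rrm2 at -0.05. Replication histones gave none of 12 and a median of 0.09, with Hist1h2ap at 0.08 and Hist1h1b at -0.12. Over all kept cells all 12 histone genes were below 0, 5 of them lower in all 8 libraries where 4.1% of all genes were. The histone median was -0.42, against -0.003 over all genes. Hist1h2ae, a replication-dependent H2A gene, was then at 217 and 133 CPM in KO Th22, 177 and 212 in WT Th22, 64.7 and 162 in KO Th17, and 113 and 196 in WT Th17, against 201 to 373 CPM in cluster 3. The histone median was -0.25 in cells of at least 3000 UMIs, none was lower in all 8 libraries, and Hist1h2ae was at 83.1 and 250.9 CPM in KO Th17. Against all other clusters both lists had medians above 0, at 0.80 over 27 S phase genes and 0.92 over 11 histones, but only 3 and 2 of their genes were called higher, where 2.47% of all genes were.

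Klf2 and Timp1 were called against cluster 3 over all kept cells, beside 1 lower gene that the naming rule left out. Klf2, a factor of resting T cells, was at 40.6 and 37.1 CPM in KO Th22, 55.0 and 55.7 in WT Th22, 14.4 and 18.0 in KO Th17, and 39.9 and 36.3 in WT Th17, against 40.7 to 115.7 CPM in cluster 3, lower in each library (mean log2 ratio -1.09 ± 0.29, SD, n = 8). Timp1, an inhibitor of metalloproteinases, was at 62.1 to 166 CPM against 37.6 to 76.0 CPM, higher in each library (1.06 ± 0.40). Both were also called in cells of at least 3000 UMIs, at -1.06 ± 0.61 for Klf2 and 1.03 ± 0.45 for Timp1. In cells of at least 5000 UMIs the ratios were -0.57 ± 0.80 for Klf2 and 0.82 for Timp1, which was higher in 7 of 8 libraries, and neither was called.

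T cell genes were at similar levels in both clusters. The 13 genes of T cell identity summed to 4505 to 6033 CPM in cluster 10 and 5048 to 6305 CPM in cluster 3, with a median log2 ratio of -0.13, or -0.09 in cells of at least 5000 UMIs. Th17 core genes had a median of 0.02 in that range against cluster 3, glycolysis genes -0.04 and naive and memory T cell genes -0.09, none with a called member; with TMM scaling in that range the Th17 median was -0.07. Against all other clusters at that depth 2 of 11 Th17 genes, Il17a and Il24, were called lower, where 2.74% of all genes were called higher and 0.0629% lower. Both cytokine genes were chosen after their values were seen. Genes of other cell types were low. Summed B cell genes were at 30 to 78.1 CPM in cluster 10 and 25.6 to 48.9 CPM in cluster 3, with 6 of 9 at 0 in cluster 10, Cd79a among them. Myeloid genes were at 16.3 to 49.9 against 9.09 to 23.5 CPM with 2 of 6 at 0, Csf1r and Cd14, CD8 genes at 7.85 to 43.1 against 6.20 to 13.5 CPM, and haemoglobin genes at 0 in both clusters. Gamma-delta and cytotoxic genes were at 96.4 to 239 against 74.9 to 265 CPM. Their part in the cluster differences was not tested.

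The share of kept cells in cluster 10 was 2.56% and 1.29% of KO Th22 cells, 0.562% and 2.69% of WT Th22 cells, 0.287% and 0.369% of KO Th17 cells, and 0.414% and 1.48% of WT Th17 cells. With the shallow cells left out of the cluster, the share was 0.0982% and 0.114% in KO Th17, 0.38% in WT Th17 replicate 1 and 0.509% in WT Th22 replicate 1, and the other 4 libraries had none to leave out. The exact binomial 95% interval over all kept cells was 0.206% to 0.39% for the smallest share and 2.4% to 3.0% for the largest. The median depth of the library's kept cells was 4142 and 3669.5 UMIs, 2627 and 3679 UMIs, 2430 and 2354 UMIs, and 2489 and 3847 UMIs in the same order, so the 4 libraries with the smallest shares were the 4 of lowest depth, and its part in the shares was not tested. KO and WT libraries overlapped, with means of 1.13% ± 1.06 and 1.29% ± 1.05 (SD, n = 4 each), and differed by -0.16 percentage points (two-sided exact permutation test within polarization, p = 0.722). This sign turned without KO Th22 replicate 2 (0.156), WT Th17 replicate 2 (0.108) or WT Th22 replicate 2 (0.372). Th22 and Th17 libraries overlapped too, with means of 1.78% ± 1.02 and 0.639% ± 0.566, a difference of 1.14 points (exact permutation p = 0.111, 0.222 after Benjamini-Hochberg adjustment over 4 tests of shares) that came to 0.605 points without WT Th22 replicate 2. Without the shallow cells the differences were -0.249 points for KO (exact permutation p = 0.722) and 1.24 points for Th22 (exact permutation p = 0.111).

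Among all kept cells of at least 5000 UMIs the share was 6.91% and 4.40% of KO Th22 cells, 4.0% and 9.07% of WT Th22 cells, 1.19% and 1.59% of KO Th17 cells, and 3.23% and 4.77% of WT Th17 cells. The Th22 libraries lay at 4.0% or more, and of the Th17 libraries WT Th17 replicate 2 overlapped them. Th22 exceeded Th17 by 3.40 points (exact permutation p = 0.111, adjusted 0.222) and KO was below WT by 1.74 points with overlap (difference -1.74, exact permutation p = 0.278, adjusted 0.371). Without WT Th22 replicate 1 the KO difference was -3.01 points and without WT Th22 replicate 2 it was -0.474 points, and the Th22 difference was 2.13 points without WT Th22 replicate 2. The 36 arrangements allow no p below 0.0556, so none of these tests could pass 0.05. Ube2c, one of the genes that mark the cluster, was called lower in KO Th17 than in WT Th17 among all kept cells of it but not among those of at least 3000 UMIs (adjusted p = 0.22, edgeR), and its part in the shares was not tested.

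Gpr65, the deleted gene, encodes a receptor that senses extracellular acid and lies on the plus strand of chromosome 12 from 98268635 to 98276644 of GRCm38. Within cluster 10 it was at 0.979 and 0.714 CPM in KO Th22, 28.4 and 51.2 in WT Th22, 0 and 0 in KO Th17, and 76.5 and 49.9 in WT Th17, so KO and WT did not overlap. Its log2 fold change, KO over WT in both polarizations, came to -5.55 ± 0.47 (SE), with an adjusted p of 6.82e-10 by edgeR's quasi-likelihood test with Benjamini-Hochberg adjustment. In KO Th17 the 305744 UMIs of cluster 10 held none of Gpr65, which was at least 6.44-fold lower than in WT Th17 when 3 counts over the group are set as the floor. Where in the gene the deletion lies is not given in the labels.

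Across both polarizations 14 of 7071 genes passed at an adjusted p of 0.05, 6 higher in KO and 8 lower (0.198%). Named by rule, Nupr1, Trat1, Nkg7 and Cox6a2 were higher, and Gpr65, Ifitm1, Ifitm3, Ecm1, Atp6v0d2 and Egr1 were lower. Il24, outside the rule, was named after its value was seen. The naming rule left out 3, which were gene models without a name or pseudogenes. Of the 138 mitotic genes tested none passed in either direction, with a median log2 fold change of -0.16, against -0.01 over all genes. Without KO Th22 replicate 1 the number of genes called was 64, and without KO Th22 replicate 2 it was 34; no other single omission moved it outside 10 to 21. Among cells of at least 3000 UMIs 14 of 6838 genes passed (0.205%).

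Ifitm1 and Ifitm3 encode membrane proteins induced by interferon that restrict virus entry, and both were lower in KO. Ifitm1 was at 121 and 112 CPM in KO Th22, 618 and 633 in WT Th22, 0 and 0 in KO Th17, and 86.4 and 90.7 in WT Th17. KO was below WT within each polarization without overlap, and Th22 was above Th17 within each genotype. The log2 fold change came to -2.48 ± 0.20 (SE; adjusted p = 3.19e-10, edgeR's quasi-likelihood test), Ifitm1 in KO Th17 was at least 9.02-fold lower than in WT Th17, and in cluster 3 the same fold change was -2.75. Ifitm3 was at 45 and 80 CPM in KO Th22, 165 and 243 in WT Th22, 7.18 and 6.0 in KO Th17, and 39.9 and 43.5 in WT Th17, with the same order and no overlap within a polarization. Its log2 fold change was -1.75 ± 0.23 (adjusted p = 1.44e-05, edgeR) in cluster 10 and -1.84 in cluster 3. Ifitm1 passed in 18 of 18 settings and Ifitm3 in 17 of 18.

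Nupr1, a stress-induced chromatin protein, was at 142 and 113 CPM in KO Th22, 46.1 and 45.7 in WT Th22, 172 and 168 in KO Th17, and 59.8 and 68.9 in WT Th17, so every KO library was above every WT library. Its log2 fold change was 1.46 ± 0.18 (adjusted p = 4.02e-06, edgeR), against 1.19 in cluster 3. Trat1, an adaptor that stabilizes the T cell receptor, was at 27.9 and 30 CPM in KO Th22, 3.55 and 6.79 in WT Th22, 43.1 and 42 in KO Th17, and 13.3 and 15.4 in WT Th17, again without overlap. Its log2 fold change was 1.99 ± 0.31 (adjusted p = 0.000437, edgeR), against 0.98 in cluster 3 (adjusted p = 0.077), and the difference between the 2 clusters did not pass (adjusted p = 0.80).

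Nkg7, a protein of cytotoxic granules, was at 20.1 and 39.3 CPM in KO Th22, 5.32 and 4.53 in WT Th22, 115 and 24 in KO Th17, and 13.3 and 20.9 in WT Th17, where the lowest KO value lay below the highest WT value. Its log2 fold change was 2.22 ± 0.37 (adjusted p = 0.0019, edgeR). The summed list of 10 gamma-delta and cytotoxic genes to which it belongs was at 143 and 239 CPM in KO Th22, 206 and 131 in WT Th22, 223 and 144 in KO Th17, and 96.4 and 138 in WT Th17, with Klrb1c and Tcrg-C1 at 0, and the part of such cells was not tested. Ecm1, an extracellular matrix protein that CD4+ T cells secrete, fell by 1.16 on the log2 scale, with 35.9 to 48 CPM in KO and 76.5 to 108 CPM in WT (adjusted p = 0.0019, edgeR). Cox6a2, a subunit of cytochrome oxidase, rose by 1.49 and Atp6v0d2, a subunit of the vacuolar proton pump, fell by 1.24 on the log2 scale (adjusted p = 0.00439 each, edgeR), and Egr1, an immediate early gene of T cell receptor signalling, fell by 1.15 (adjusted p = 0.0481, edgeR) and passed in 9 of 18 settings. Without the shallow cells the log2 fold changes were 1.49 for Nupr1, 2.13 for Trat1, 2.35 for Nkg7, 1.53 for Cox6a2, -2.46 for Ifitm1, -1.74 for Ifitm3, -1.19 for Ecm1, -1.14 for Atp6v0d2 and -1.22 for Egr1, and all 9 passed. Nkg7 was then at 155.9 and 18.6 CPM in KO Th17, so replicate 1 was far above replicate 2.

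**Figure D5:**
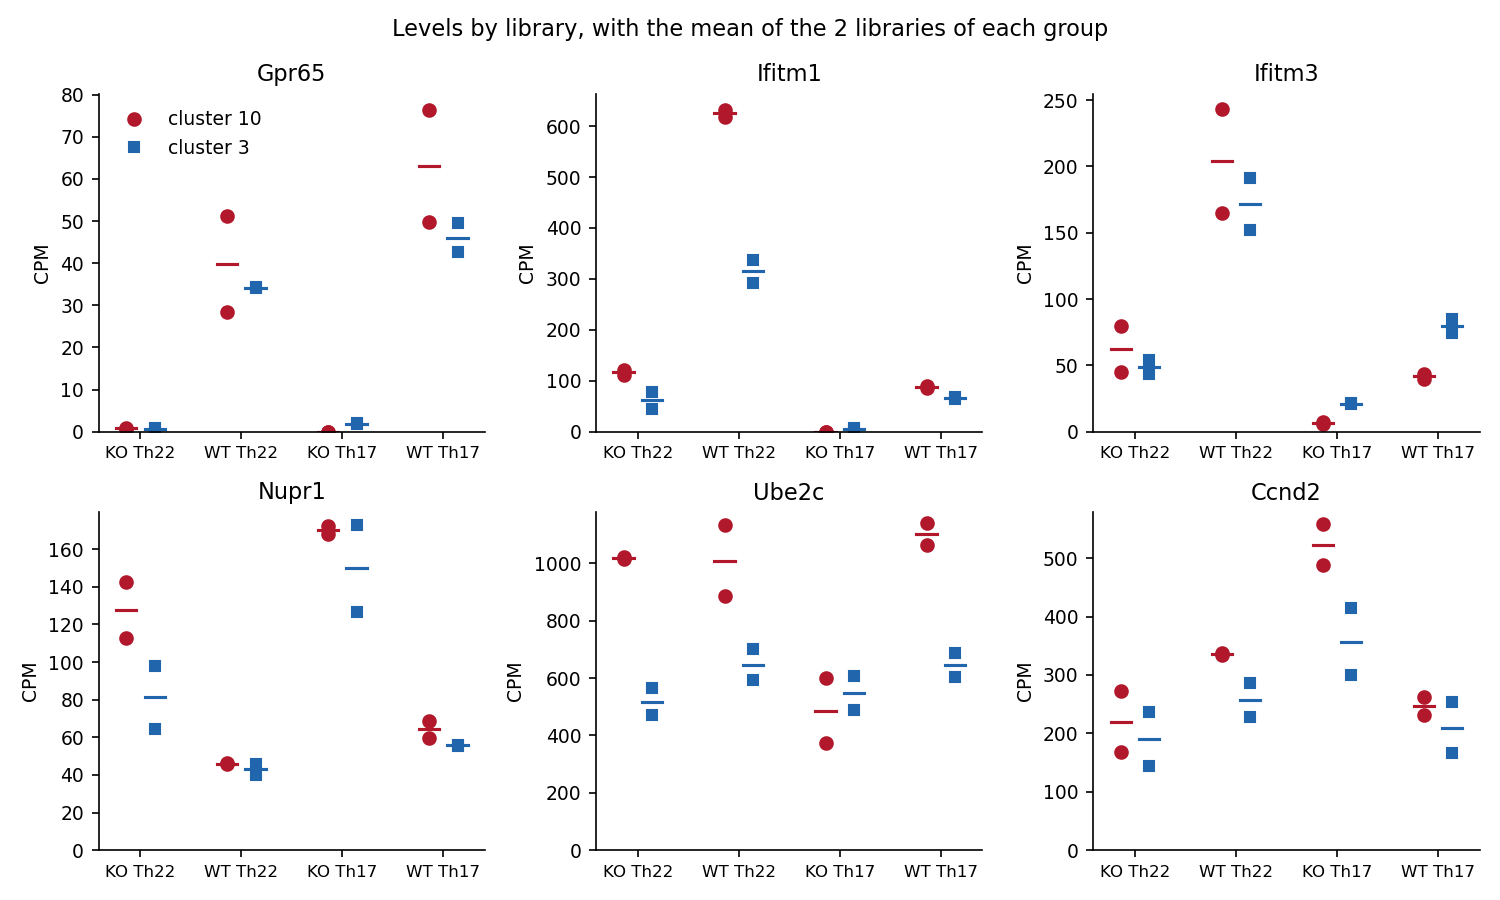
CPM (y axes) of 6 genes in the 4 groups (x axis), with 1 point per library in cluster 10 (circles) and cluster 3 (squares) and short lines at the mean of the 2 libraries. Gpr65, Ifitm1 and Ifitm3 lie lower in KO than in WT within each polarization in both clusters, while in cluster 10 Ube2c is low and Ccnd2 high in KO Th17.

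In Th17 alone 13 of 7071 genes passed between KO and WT (0.184%), 5 higher and 8 lower, and cell cycle genes were among them. Ube2c was at 374 and 600 CPM in KO Th17 and 1064 and 1141 CPM in WT Th17, without overlap (log2 fold change -1.20 ± 0.18, SE; adjusted p = 0.000467, edgeR). Cenpa fell by 1.27 and the chromatin proteins Hmgb2 and Hmgb1 by 1.01 and 0.85 on the log2 scale, with adjusted p of 0.00193, 0.000223 and 0.0334 (edgeR). Of 138 mitotic genes 3 passed, all lower where 0.113% of all genes were (Cenpa, Ube2c and, named after its value was seen, Ube2s). Of the 138, 116 were below 0 with a median log2 fold change of -0.58, against 3795 of all 7071 genes and a median of -0.045. Cenpf, at -0.90 ± 0.24, did not pass (adjusted p = 0.21, edgeR). These values move with the shallow cells. In cells of at least 3000 UMIs none of the 138 passed and their median was -0.23, against -0.093 over all genes. Ube2c was there at 530 and 929 CPM in KO Th17 and 1089 and 1141 CPM in WT Th17 (log2 fold change -0.73, adjusted p = 0.22, edgeR). In cluster 3 the fold change of Ube2c was -0.30 and did not pass. In these deep cells 3 of 6838 genes passed (0.0439%), namely Ifitm1, S100a6 and Tpt1, so that Gpr65 at 0 UMIs did not (adjusted p = 0.0811). Leaving out KO Th17 replicate 1 or 2 turned the count of 13 into 3 and 7, and it was 5 without WT Th17 replicate 2, 40 and 39 without KO Th22 replicate 1 or 2, and 20 without WT Th22 replicate 1.

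S100a6, a calcium-binding protein, was higher in KO Th17 at both depths. It was at 302 and 306 CPM in KO Th17 and 66.5 and 68 CPM in WT Th17 (log2 fold change 2.12 ± 0.28, adjusted p = 5.21e-05, edgeR), and in deep cells at 374 and 418 CPM against 68 and 68 CPM (2.41, adjusted p = 5.65e-06). Ccnd2, cyclin D2 of the G1 phase, was at 488 and 558 CPM in KO Th17 and 263 and 231 CPM in WT Th17, without overlap (1.06 ± 0.22, adjusted p = 0.0334, edgeR), but in deep cells its log2 fold change was 0.73 (adjusted p = 0.443). Arl6ip1 fell by 0.93 (adjusted p = 0.0334), and H2afj, Hsd17b10 and Nupr1 rose by 0.93, 1.09 and 1.31 on the log2 scale (adjusted p = 0.047 each, edgeR), none of which passed in deep cells.

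In Th22 alone 13 of 7071 genes passed (0.184%), 5 higher and 8 lower, and 14 of 6838 passed in deep cells (0.205%), KO Th22 having no shallow cell. No mitotic gene of 138 passed and their median log2 fold change was 0.005, against 0.015 over all genes. The markers lay side by side, with Cenpf at 296 and 318 CPM in KO Th22 and 289 and 316 CPM in WT Th22 (0.09 ± 0.18), Hmmr at 0.10 ± 0.18 and Ube2c at 0.08 ± 0.16 on the log2 scale (SE; adjusted p of 0.992, 0.99 and 0.992, edgeR). Gpr65, Ifitm1, Ifitm3, Nupr1, Trat1, Nkg7 and Ecm1 passed, as did 2 that the naming rule left out, a gene model without a name and a pseudogene. The other genes that passed were Pdcd4, a translation inhibitor, which fell by 0.99, Trib2, a pseudokinase, by 1.17, and the nuclear RNA Malat1 by 0.59, while the ribosomal protein gene Rpl22l1 rose by 0.57 on the log2 scale (adjusted p of 0.0173, 0.0187, 0.0173 and 0.0489, edgeR). Pdcd4 was at 114 and 116 CPM in KO Th22 and 220 and 259 CPM in WT Th22, without overlap. Without KO Th22 replicate 1 the count of called genes was 87, and without KO Th22 replicate 2 it was 149.

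A test of the difference between the KO effects in Th22 and in Th17 was added after seeing the data. That difference passed for 2 of 7071 genes (0.0283%), Ube2c at 1.29 ± 0.24, the 1 higher gene (0.0141%), and Ccnd2 at -1.60 ± 0.29 on the log2 scale (SE; adjusted p = 0.0286 each, edgeR). Neither passed among cells of at least 3000 UMIs (adjusted p of 0.313 and 0.179), where 1 of 6838 genes did (0.0146%), S100a6. Whether the KO effect differed between cluster 10 and cluster 3 was tested in 9866 genes, and 0 passed in edgeR's quasi-likelihood test, while 501 had an unadjusted p under 0.05 and RLE scaling also gave 0. In cells of at least 5000 UMIs 1 gene passed, and without KO Th22 replicate 1, KO Th17 replicate 1 or WT Th17 replicate 1 it was 3, 1 and 1.

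Th22 and Th17 differed in 10 of 7071 genes of cluster 10 (0.141%), 9 higher in Th22 (0.127%) and 1 lower. The lower gene was AA467197, whose symbol the naming rule left out. The count was 39 and 24 without KO Th22 replicate 1 or 2, 24 without WT Th22 replicate 1, 6 without WT Th17 replicate 1 and 2 without WT Th22 replicate 2. Ifitm1 and Ifitm3 had log2 fold changes of Th22 over Th17 of 2.99 ± 0.22 and 2.39 ± 0.26 (SE; adjusted p of 2.24e-11 and 4.87e-07, edgeR). Tiparp, a target of the aryl hydrocarbon receptor that feeds back on it, was at 69 and 40.7 CPM in KO Th22, 58.5 and 65.2 in WT Th22, 21.6 and 12 in KO Th17, and 23.3 and 24.5 in WT Th17, so every Th22 library was above every Th17 library. Its log2 fold change was 1.48 ± 0.28 (adjusted p = 0.0123, edgeR), against 1.5 in cluster 3. Asb2, an adaptor of a ubiquitin ligase, was at 35.7 and 36.4 CPM in KO Th22, 56.8 and 49.8 in WT Th22, 43.1 and 12 in KO Th17, and 3.32 and 11.8 in WT Th17, with overlap through KO Th17 replicate 1 (1.82 ± 0.36, adjusted p = 0.0215). Without the shallow cells Tiparp had 1.54 and Asb2 1.71 (adjusted p of 0.00963 and 0.0408, edgeR), with Asb2 at 62.4 and 18.6 CPM in KO Th17. Tiparp and Asb2 were 2 of 3 tested genes of the list of aryl hydrocarbon receptor targets, and the third did not pass. Cyp1a1, the best-known target, was at 14.2 and 5.71 CPM in KO Th22, 7.10 and 7.24 in WT Th22, 0 and 0 in KO Th17, and 0 and 0.907 in WT Th17, too few UMIs to enter the test.

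The interferon-induced genes Ifi27 and Ifi27l2a rose by 1.20 and 0.87, Treml2, a receptor of the TREM family, by 1.23, Susd3 by 1.30 and the histone variant gene H2afy by 0.62 on the log2 scale (adjusted p of 0.0229, 0.0233, 0.0012, 0.0229 and 0.0387, edgeR). Ifi27 did not pass in cells of at least 3000 UMIs (adjusted p = 0.0642), and the other 4 did. Of 138 mitotic genes none passed, and their median was 0.27, against 0.017 over all genes. In deep cells it was 0.15, against 0.025 over all genes, and 10 of 6838 genes passed there (0.146%). The cytokine genes that name the 2 conditions were low in cluster 10. Il22 was at 35.7 and 15 CPM in KO Th22, 3.55 and 13.1 in WT Th22, 0 and 6.0 in KO Th17, and 0 and 10.9 in WT Th17, with overlap and no pass (0.99 ± 0.59, adjusted p = 0.959, edgeR). Il17a was at 1.96 and 0.714 CPM in KO Th22, 24.8 and 3.17 in WT Th22, 0 and 0 in KO Th17, and 3.32 and 1.81 in WT Th17.

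The effect of Th22 over Th17 differed between cluster 10 and cluster 3 for 1 of 9866 genes (0.0101%), Ifitm3, at 1.26 ± 0.23 on the log2 scale (SE; adjusted p = 0.000408, edgeR). In cluster 3 Ifitm3 was at 54.2 and 43.7 CPM in KO Th22, 191 and 152 in WT Th22, 21.3 and 20.6 in KO Th17, and 85.0 and 74.3 in WT Th17. Both Th17 groups were thus lower in cluster 10 than in cluster 3, while the Th22 groups overlapped between the clusters. With cells thinned to 3000 UMIs the difference between the clusters was 1.39 and did not pass (adjusted p = 0.186, edgeR). Nor did it pass in cells of at least 5000 UMIs, at 1.28 (adjusted p = 0.999, edgeR). The difference was 1.24 in cells of at least 3000 UMIs (adjusted p = 0.00131, edgeR), but it did not pass with the KO Th17 libraries left out (1.21, adjusted p = 0.996), without WT Th22 replicate 2 (0.79, adjusted p = 1.0) or without WT Th17 replicate 1 (1.19, adjusted p = 0.0697). The number of genes that passed was 15 without WT Th17 replicate 2, 8 without WT Th22 replicate 1 and 3 without KO Th17 replicate 1.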

How the data were processed

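Cells were captured with 10x Genomics 3' chemistry, per the labels' protocols. The deposited matrix holds UMI counts per gene and cell, not normalized, for 104660 cells and 16649 gene symbols, and the deposited cell table gives library, cluster number, percent of mitochondrial UMIs, and S and G2/M scores that the authors computed in a way not given in the sources used here. Per the submitters' processing notes, Cell Ranger 5.0.1, Seurat and mm10 were used, with no roles given. The UMI total recomputed from the matrix matched the deposited one in all 104660 cells, and 2972 cells with fewer than 500 genes were left out.

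Counts were summed per library over cells of cluster 10, cluster 3 or all clusters other than 10, and CPM was computed here from these sums. Clusters were compared by log2 ratios with 5 CPM added, with no test. Groups were compared with edgeR 4.0.16 in R 4.3.3 (quasi-likelihood F test, TMM factors, filterByExpr on the 4 groups, robust estimation, Benjamini-Hochberg adjustment over all genes tested at 0.05), with DESeq2 1.42.0 as an alternative. The KO and Th22 effects over both strata came from an additive model, the others from a model with 1 mean per group, and the cluster differences from a model with library as a block. Thinning used a fixed random seed. The edgeR step was tested on simulated data with known changes and a fixed spread between libraries before use. Of 2-fold changes it recovered 16% for KO over WT in Th17, 55% in Th22 and 75% over both polarizations, and 65% for Th22 over Th17. For the differences of genotype and polarization effects between clusters it recovered 46% and 47%. A gene that did not pass may therefore still differ. Cluster 10 held 139193 to 2208614 UMIs per library, the 2 KO Th17 libraries 139193 and 166551, so their values carry the largest counting error.

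Named genes against other clusters were the 12 largest rises and falls among called genes of at least 50 CPM, and for tested comparisons the 12 genes of smallest adjusted p of at least 20 CPM, with Gpr65, cytokine, interferon, proliferation and marker genes added; up to 5 members of a list, and its extremes, were also named. Gene models without a name, pseudogenes, and symbols of such forms, were counted only, apart from AA467197. The members, the 33 gene lists and the rules were chosen with earlier results of these data known. Positions come from GENCODE vM21 (GRCm38) matched by symbol, and promoters from RefSeq (GRCm38.p6).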

Additional observations from a re-analysis of the deposited data

Results flagged for a closer look

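Of 79 groups of libraries checked for a library far from the others, 4 held one, about the number that chance gives at 5% per group. Among cluster 10 cells of at least 3000 UMIs the median deposited S score was highest in KO Th17 replicate 1 (0.220), which had 14 such cells. Cox6a2 in WT Th17 replicate 1 was at 29.91 CPM, above the other 3 WT libraries. S100a6 in WT Th22 replicate 1 was at 108.2 CPM, above the other 3 WT libraries. Malat1 in KO Th17 replicate 2 was at 10030 CPM, above the other 3 KO libraries.

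Effects that differed between groups in edgeR's quasi-likelihood test of the difference itself were Ifitm3, whose Th22 over Th17 effect was 1.258 higher on the log2 scale in cluster 10 than in cluster 3, Ube2c, whose KO effect was 1.288 higher in Th22 than in Th17, and Ccnd2, for which that difference was -1.597. The test for Ube2c and Ccnd2 was added after seeing the data. Shallow cells, which make up 67.7% of KO Th17 cells in cluster 10, move with the Ube2c and Ccnd2 values.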

How the results depend on the processing

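Counts of called genes moved by over 1.5 times under these settings. Across polarizations KO over WT gave 14 genes, but 7 after thinning, 5 with libraries summed to 2 against 2 and 28 without a filter on low counts. In Th17 it gave 13, but 5 after thinning, 30 without the filter, 3 in cells of at least 3000 UMIs and 3 in cells of at least 5000 UMIs. In Th22 it gave 13, but 8 with DESeq2 and 31 without the filter. Th22 over Th17 gave 10, but 5 after thinning, 26 without the filter and 6 in cells of at least 5000 UMIs. For the KO effect in cluster 10 against cluster 3, 0 became 1 in cells of at least 5000 UMIs. For the polarization effect between clusters, 1 became 0 with the KO Th17 libraries left out, after thinning and in cells of at least 5000 UMIs, and 2 without the filter and in cells of at least 3000 UMIs. For the KO effect in Th22 against Th17, 2 became 1 in cells of at least 3000 UMIs. Cluster 10 over cluster 3 gave 3, but 33 in cells of at least 5000 UMIs, 24 with TMM scaling there, 37 there with KO Th17 left out, 12 after thinning (4 higher and 8 lower), and 52 in cells of 5000 to under 7000 UMIs, or 64 with KO Th17 also left out, and cluster 10 over the rest gave 118, but 73 at a floor of 50 CPM and 191 in cells of 5000 to under 7000 UMIs with KO Th17 left out. Fewer genes are tested after thinning (4464, against 7071) and more without the filter (14076), and the cause was otherwise not tested.

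Leaving out each library in turn gave 10 to 64 called genes for KO over WT, 3 to 40 in Th17, 9 to 149 in Th22, 2 to 39 for Th22 over Th17, 0 to 3 and 0 to 15 for the differences of genotype and polarization effects between clusters, 2 to 5 over cluster 3 and 117 to 149 over the rest. The share differences ranged from -0.691 to 0.372 points (KO) and 0.605 to 1.67 points (Th22) of all kept cells, and from -3.01 to -0.474 points (KO) and 2.13 to 4.67 points (Th22) at 5000 UMIs or more. The sign of the KO share difference turned without KO Th22 replicate 2 (0.156), WT Th17 replicate 2 (0.108) and WT Th22 replicate 2 (0.372).

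With replicate number as a replicate block the counts were 14, 12, 13 and 10 for KO over WT, KO over WT in Th17, in Th22, and Th22 over Th17, and 0 and 1 for the differences between clusters. Deviations of same-numbered libraries correlated between -0.152 and 0.0779. Counting noise in sums over few cells also lowers such correlations, so whether the numbers pair the samples cannot be told from them. Depth limits KO Th17 most, where 41 and 52 cells were summed. The test of the KO effect in Th22 against Th17 was chosen after seeing the data. So were the settings of at least 3000 UMIs, those without KO Th17 and those of 5000 to under 7000 UMIs. The TMM scaling in cells of at least 5000 UMIs was also chosen then.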
